A study of Homo sapiens with 6 samples.

Results

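The HOX genes were examined in human lung fibroblasts that the study describes as senescent, with and without depletion of the long noncoding RNA sin-lncRNA. Members were taken by name: every protein-coding gene of the deposited table called HOXA, HOXB, HOXC or HOXD followed by a number. That gave 39 genes of 57819 in the table, of which 20345 are protein-coding. They comprise 11 HOXA genes on chromosome 7, 10 HOXB genes on chromosome 17, 9 HOXC genes on chromosome 12 and 9 HOXD genes on chromosome 2. The cells were IMR90 ER:Ras, an established line of fetal lung fibroblasts that carry a Ras oncogene made inducible by fusion with part of the estrogen receptor. Both groups received 200 nM of 4-hydroxytamoxifen (4OHT), the ligand that switches the fusion on, for 3 days. The control group of 3 libraries received a scrambled siRNA (siSCR) and the other 3 libraries an siRNA against sin-lncRNA (sin-lncRNA KD). All 6 libraries therefore come from cells with Ras switched on, and cells that had not received 4OHT were not analysed here. Per the study's design, the comparison addresses the function of sin-lncRNA in senescence. The order in which siRNA and 4OHT were given is not stated in the sources used here.

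HOX genes encode transcription factors that bind DNA through a homeodomain, and they give cells along the body axis their positional identity. The mammalian genes lie in 4 clusters that arose by duplication. Genes at the same place in different clusters form a paralog group, numbered from 1 at the end expressed toward the head to 13 at the end expressed toward the tail and in the distal limbs and genital region. Fibroblasts keep a HOX pattern that reflects the site they came from, and in the developing lung mesenchyme HOXA5 and neighbouring HOXA and HOXB genes are known to be expressed. Polycomb complexes keep HOX genes silent, Trithorax proteins keep them on, retinoic acid induces the low-numbered ones, and PBX, MEIS and PKNOX proteins bind DNA together with HOX proteins.

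The coding stretches below are shown because they come from 2 expressed HOX genes of different clusters that passed the test in opposite directions. Each is the homeobox, the 180 bases that encode the 60 residues of the homeodomain, read from the GENCODE 29 transcript 5′ to 3′. The capitals mark the 18 bases by which the element was located, which encode the core of the recognition helix that contacts DNA.
HOXB7: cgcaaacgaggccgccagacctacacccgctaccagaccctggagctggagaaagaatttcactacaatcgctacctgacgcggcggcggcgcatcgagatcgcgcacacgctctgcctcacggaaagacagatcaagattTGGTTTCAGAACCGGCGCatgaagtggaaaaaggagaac
HOXC6: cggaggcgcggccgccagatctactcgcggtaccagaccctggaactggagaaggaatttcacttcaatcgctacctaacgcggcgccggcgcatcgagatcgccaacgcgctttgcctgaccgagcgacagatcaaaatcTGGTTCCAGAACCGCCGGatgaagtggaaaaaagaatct
The homeobox was found in all 39 members. Over the 741 pairs of members, the share of identical bases ran from 47.8% to 91.1%. HOXB7, which was higher in the knockdowns, and HOXC6, which was lower, matched each other at 82.8% of the bases. The sequences also bear on how reads of 50 bases can be placed: only 3 of the 741 pairs shared a run of 50 or more bases in the homeobox, the longest being 51 bases. Over whole GENCODE 29 transcripts, no window of 50 bases of HOXC8 and 0.136% of those of HOXB7 occurred in another HOX gene. The share was 5.52% for HOXB3 and 13.1% for HOXC6, so the counts of these overlapping genes are less certain.

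The clusters also hold genes of microRNAs, of which 3 known regulators of HOX transcripts are described here. Others, such as MIR10B in HOXD and MIR615 in HOXC, were not searched. The mature sequences of the 3, from RefSeq, are shown with the seed (bases 2 to 8) in capitals.
hsa-miR-196a-5p: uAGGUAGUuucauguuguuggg
hsa-miR-196b-5p: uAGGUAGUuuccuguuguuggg
hsa-miR-10a-5p: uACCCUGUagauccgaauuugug
The miR-196 sequences share 1 seed. The 7 bases that pair with it, ACTACCT, were searched on the transcript strand of the longest 3′ UTR of each gene, and occurred in 7 of 18 tested HOX genes (38.9%), against 9.54% of 12682 tested protein-coding genes. UTR lengths were not matched in this count. They included HOXA9 and HOXB7, which were higher, HOXC8, which was lower, and HOXA5, HOXA7 and HOXB6, which were not called. The word for miR-10a, ACAGGGT, occurred in 3 of 18 (16.7%, HOXA3 and HOXB3 among them), against 15.9% of tested protein-coding genes. The matching stretches of the 3 changed and expressed genes that held such a word are printed here, with the word in capitals.
HOXC8, first match: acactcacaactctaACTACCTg
HOXC8, second match: ataaatctttaacatACTACCTa
HOXB7: caacactgaaaaaatACTACCTa
HOXB3: tgacttaacgtgaaaACAGGGTa
HOXC8 and HOXB7 both held the miR-196 word and were measured in opposite directions. A match is a description of the letters only. The 7 genes of the clusters that the table types as miRNA had no read in any library. A longer transcript that the table names MIR10A and types as sense intronic (ENSG00000257178.2) had 17 to 34 reads in each library and did not pass the test (log2 fold change -0.06). PolyA libraries of this kind do not measure mature miRNAs, so their levels are unknown.

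HOX promoters are known for their density of CpG, the base pair of C followed by G at which DNA is methylated and around which Polycomb complexes gather. RefSeq windows of 300 bases around the start (GRCh38.p14, 250 before to 50 after) were found for 20 of 39 members, 27 windows in all. The median number of CpG was 22 in these windows and 14 in all 35116 windows of the reference table. An expressed and a silent member are shown as examples, chosen after their values were seen, with each CG in capitals.
HOXA2, chr7:27102634-27102933, minus strand: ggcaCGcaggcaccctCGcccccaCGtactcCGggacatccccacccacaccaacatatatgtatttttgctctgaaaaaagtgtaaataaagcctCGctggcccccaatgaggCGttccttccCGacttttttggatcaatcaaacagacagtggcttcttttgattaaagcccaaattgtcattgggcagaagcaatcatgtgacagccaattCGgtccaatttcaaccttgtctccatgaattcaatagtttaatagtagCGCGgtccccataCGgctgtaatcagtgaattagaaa
HOXD1, chr2:176188418-176188717, plus strand: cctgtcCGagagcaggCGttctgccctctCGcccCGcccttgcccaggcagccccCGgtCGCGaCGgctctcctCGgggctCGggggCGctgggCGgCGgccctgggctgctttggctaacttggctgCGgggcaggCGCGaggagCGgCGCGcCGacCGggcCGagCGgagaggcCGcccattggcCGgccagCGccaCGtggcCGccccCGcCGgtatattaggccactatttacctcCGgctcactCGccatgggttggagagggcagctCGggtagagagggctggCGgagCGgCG
The HOXA2 window held 11 CG and the HOXD1 window 36. HOXA2 is a hindbrain and second-arch gene that was expressed here at 2.62 ± 0.12 RPM (reads in a library scaled to 1000000; mean ± SD, n = 3) in the siSCR libraries. HOXD1 had no read in any of the 6 libraries. Of the 12 members without reads, 8 had a window, with a median of 23.5 CG (range 4 to 44). HOXA4, HOXA6, HOXA7 and HOXA9, which were tested but not on, had a median of 28. The 8 windows of members that were on had a median of 13 (range 0 to 29), and 7 of them belong to HOXA3. No order by expression can be read from so few genes, and no methylation or binding was measured.

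Depth ran from 30271192 to 50913672 reads in genes for the siSCR libraries and from 22117324 to 27882280 for the sin-lncRNA KD libraries. Values are given as RPM, with whole reads recovered from the deposited log2 values, and 3 reads, the most that a count of 0 allows, correspond to 0.0596 to 0.134 RPM. sin-lncRNA itself, the target of the siRNA, stood at 3.70, 4.73 and 4.09 RPM in the siSCR libraries and 0.493, 0.640 and 0.534 RPM in the knockdowns, 13.3% of the control mean. The 12 fibroblast markers were all expressed and summed to 16213 to 17352 RPM in the controls and 12104 to 12465 RPM in the knockdowns. Of the 12, 6 rose and 5 fell, with a median log2 fold change of 0.05. That is 91.7% called, beside 41.0% of all genes tested. Epithelial markers summed to 8.82 to 10.7 and 4.84 to 6.02 RPM. Of these 10, KRT5, NKX2-1 and SCGB1A1 had 0 reads and 2 reached 1 RPM in every library. Of 3 tested, 2 were lower (66.7%), beside 23.5% of all genes tested. Endothelial markers summed to 7.13 to 7.96 and 8.01 to 8.84 RPM, with 1 of 2 tested higher (50%, beside 17.5% of all genes tested). Immune markers summed to at most 0.677 RPM. Smooth muscle markers summed to 506 to 537 RPM in the controls and 319 to 364 RPM in the knockdowns. Of 5 tested, 4 were lower (80%), beside 23.5% of all genes tested. The part that these shifts play in the HOX results was not tested, and in RNA from whole cultures fewer cells of a type and less RNA per cell cannot be told apart. The labels do not say that replicates came from separate cultures, so the p-values measure the spread between these libraries, which may be technical.

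The siSCR cells expressed HOXB2 to HOXB8, HOXA genes of the low paralog groups with HOXA5, a short stretch of HOXC and almost no HOXD. A gene was taken as on when it reached 1 RPM in every siSCR library. By that rule 13 of 39 members were on. They included HOXA2, HOXA3 and HOXA5, HOXB2 to HOXB8 without a gap, and HOXC6 and HOXC8. HOXA4, HOXA6 and HOXA7 were tested but not on, at control means of 1.05, 0.717 and 0.846 RPM. Of the other members, 12 had no read in any library. In the 3 siSCR libraries the HOXB genes summed to 337, 262 and 307 RPM, which was 88.2% ± 0.54 (SD, n = 3) of all HOX reads. The HOXA genes summed to 37.7, 32.2 and 34.6 RPM (10.2% ± 0.48), the HOXC genes to 5.37, 4.63 and 5.19 RPM (1.48% ± 0.068) and the HOXD genes to 0.264, 0.200 and 0.258 RPM (0.0702% ± 0.0039). The HOXB cluster thus supplied most HOX RNA in each control library. Reads counted under overlapping entries that are not members, such as RP11-834C11.12 in HOXC, are not part of these sums.

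**Figure D1:**
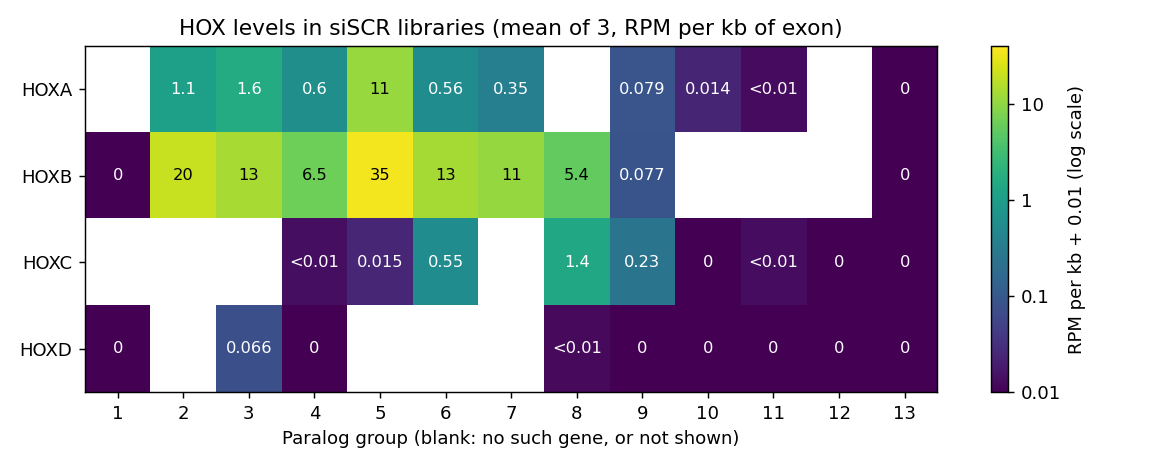
Mean level of each HOX gene in the 3 siSCR libraries, in RPM per kb of exon, by cluster (vertical) and paralog group (horizontal), with the colour on a log scale and blanks where no gene exists or none is shown. The highest cell is HOXB5, HOXB2 to HOXB8 form an unbroken bright run, and paralog groups 10 to 13 are at or near 0 in every cluster.

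Along the clusters, expression fell to few or no reads toward the high paralog groups. All 5 tested members of paralog groups 1 to 3 were on, out of 8 members. Of 15 members in groups 4 to 8, 11 were tested and 8 were on. Of 16 members in groups 9 to 13, 2 were tested and 0 were on, and the 12 members in groups 10 to 13 had at most 10 reads each over all 6 libraries. In HOXB the step was between neighbours: HOXB8 stood at 11.2 ± 0.70 RPM and HOXB9 at 0.199 ± 0.037 RPM in the controls (n = 3). In HOXA the control means fell from 18.9 RPM for HOXA5 to 0.717 for HOXA6, 0.846 for HOXA7 and 0.239 for HOXA9. In HOXC they fell from 2.69 RPM for HOXC8 to 0.388 for HOXC9. At the other end of the same cluster, HOXB1, a hindbrain gene, had 0 reads while HOXB2 stood at 45.9 ± 4.9 RPM. HOXC5 and HOXC4, which lie beside HOXC6, reached at most 0.0795 RPM in a control library. On the same strand, 59.9% of the exon bases of HOXC5 and 17.8% of those of HOXC4 are shared with other gene entries. Both spans overlap that of RP11-834C11.12, and the HOXC4 span overlaps another entry named HOXC4. In HOXA, the HOXA9 and HOXA10 spans overlap that of RP1-170O19.20. Reads of these overlapping entries are not given here. The part that the overlap plays in the low counts of HOXC5, HOXC4, HOXA9 and HOXA10 was not tested. Among HOXD genes, 7 of 9 had no read, HOXD8 had 1 read in all, and HOXD3 had 43 reads over the 6 libraries.

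To compare genes with each other, levels were divided by exon length (RPM per kb of exon, GENCODE 29, mean ± SD of the 3 siSCR libraries). HOXB5, a gene of lung branching and of neural crest, was highest at 34.6 ± 5.5. HOXB2 followed at 19.6 ± 2.1, HOXB3 at 13.4 ± 1.5, HOXB6 at 12.9 ± 2.9, HOXA5 at 11.1 ± 0.64, HOXB7 at 10.9 ± 0.81, HOXB4 at 6.48 ± 0.59 and HOXB8 at 5.44 ± 0.34. HOXA5, the member best known for lung and trachea formation, was therefore the highest gene of its cluster and the only one outside HOXB at this height. HOXA3 (1.61 ± 0.38), HOXC8 (1.43 ± 0.046) and HOXA2 (1.07 ± 0.048) formed a lower tier. The ranges over libraries overlapped between HOXB3 and HOXB6, HOXB6 and HOXA5, HOXA5 and HOXB7, and HOXA3 and HOXC8, so the order within these pairs was not resolved. HOXB5 and HOXB2 did not overlap, nor did HOXB8 and HOXA3, which lie on either side of the break between the tiers. HOXC6, at 0.547, and HOXA4, at 0.602, lay lower still, and HOXA4 missed the rule for being on by a small margin, with 0.999, 1.17 and 0.993 RPM in the controls.

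After depletion of sin-lncRNA the same 13 members reached 1 RPM in every library, and 5 members changed. HOXB3, HOXB7 and HOXA9 were higher, and HOXC6 and HOXC8 lower, in the sin-lncRNA KD libraries (limma with Benjamini-Hochberg adjustment over 19048 genes, adjusted p under 0.05). These are 27.8% of the 18 members with enough reads to test, a mean of at least 10 normalized reads. Of all genes tested, 41.0% passed the same test (17.5% higher and 23.5% lower), and of the protein-coding genes tested 48.6% passed. The share among HOX genes was lower, a difference that was not tested. The other 13 tested members did not pass, and 21 members had too few reads to test. The groups did not overlap for 5 members, the same 5, against 51.1% of all genes tested. The median log2 fold change was 0.06 over the 18 tested HOX genes (range -0.59 to 1.01) and -0.04 over all genes tested. HOXA9 and HOXC9, with means of 11.3 and 11.02 normalized reads, lay just inside the filter, and HOXB9 (8.54) and HOXD3 (7.03) just outside it.

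**Figure D2:**
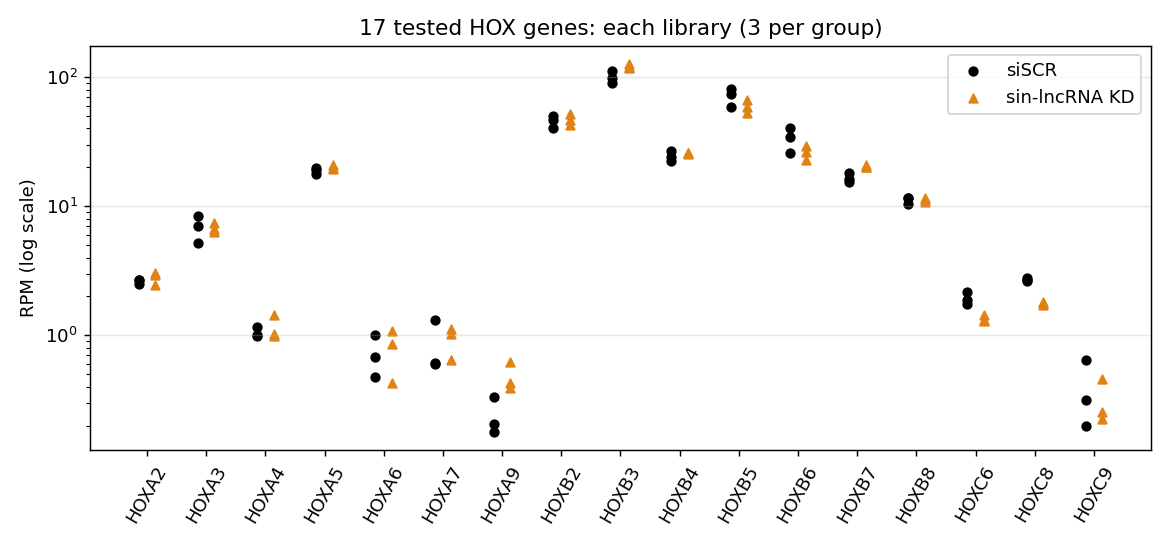
RPM of 17 tested HOX genes on a log axis, with each of the 3 siSCR libraries as a circle and each of the 3 sin-lncRNA KD libraries as a triangle. HOXB3 is the highest gene in all 6 libraries, and only HOXA9, HOXB3, HOXB7, HOXC6 and HOXC8 have circles and triangles that do not overlap.

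The HOXC genes showed the largest change among expressed members. HOXC8 (ENSG00000037965.4, hg19 chr12:54402832-54407570, plus strand), a gene of the thoracic level of the body axis, stood at 2.79, 2.66 and 2.62 RPM in the siSCR libraries and 1.79, 1.71 and 1.82 RPM in the knockdowns. The 3 knockdown values lay close together and well under the lowest control. HOXC8 fell by 0.59 on the log2 scale (SE 0.13, 95% interval -0.88 to -0.30; limma, Benjamini-Hochberg adjusted p = 0.0042), to 65.8% of the control level. Each control library held 80 to 132 reads of the gene, and each knockdown library 40 to 51. No exon base of HOXC8 is shared with another gene in GENCODE 29. The annotation release used for counting is not stated, and in the table the HOXC8 span overlaps those of HOXC6 and RP11-834C11.12.

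HOXC6 (ENSG00000197757.7, hg19 chr12:54384408-54424607, plus strand), the neighbour with which HOXC8 shares a stretch of the cluster, stood at 1.88, 1.76 and 2.17 RPM in the controls and 1.43, 1.32 and 1.28 RPM in the knockdowns. All 3 knockdowns were under all 3 controls, by a smaller margin. HOXC6 fell by 0.51 on the log2 scale (SE 0.16, 95% interval -0.86 to -0.16; limma, Benjamini-Hochberg adjusted p = 0.0246), to 69.5% of the control level, on 31 to 109 reads per library. The call ended when siSCR replicate 3 (log2 fold change -0.43, adjusted p = 0.121), KD replicate 2 (adjusted p = 0.0549) or KD replicate 3 (adjusted p = 0.0672) was left out of the limma fit. In the table the HOXC6 span runs across HOXC8 and HOXC9, and 15.7% of its GENCODE 29 exon bases are shared with other genes, so reads of the neighbours could enter its count. Summed over the cluster, HOXC RNA was 5.06 ± 0.39 RPM in the controls and 3.52 ± 0.13 RPM in the knockdowns (SD, n = 3), or 1.48% and 1.00% of all HOX reads. HOXC9, the third tested member, had 0.646, 0.200 and 0.318 RPM in the controls and 0.224, 0.256 and 0.463 RPM in the knockdowns, with an interval of the log2 fold change from -1.15 to 0.81.

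In the HOXB cluster 2 of 7 tested genes rose and none passed as lower by limma (2 at an unadjusted p under 0.05, and 0 with voom on the recovered reads). The genes called are 28.6% of those tested, beside 41.0% of all genes tested. HOXB3 (ENSG00000120093.7, hg19 chr17:46626232-46682274, minus strand), a gene of the hindbrain and branchial arches and of blood progenitors, stood at 111, 89.2 and 98.3 RPM in the siSCR libraries and 117, 126 and 121 RPM in the knockdowns. The highest control, replicate 1, lay close under the lowest knockdown. HOXB3 rose by 0.29 on the log2 scale (SE 0.07, 95% interval 0.13 to 0.44; limma, Benjamini-Hochberg adjusted p = 0.00811), to 121% of the control level. By RPM it was the most abundant HOX transcript in both groups, with the largest exon length among the HOXB genes. Its span in the table runs over HOXB4, HOXB5 and HOXB6, and 13.2% of its GENCODE 29 exon bases are shared with other genes.

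HOXB7 (ENSG00000260027.3, hg19 chr17:46684594-46710934, minus strand), known for promoting growth factor expression and invasion in tumours, stood at 16.3, 15.5 and 17.9 RPM in the controls and 20.04, 20.06 and 20.7 RPM in the knockdowns. The groups were separate, and the knockdown values were nearly identical. HOXB7 rose by 0.29 on the log2 scale (SE 0.07, 95% interval 0.14 to 0.44; limma, Benjamini-Hochberg adjusted p = 0.00652), to 122% of the control level. None of its GENCODE 29 exon bases is shared, although its span in the table covers HOXB8 and HOXB9.

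**Figure D3:**
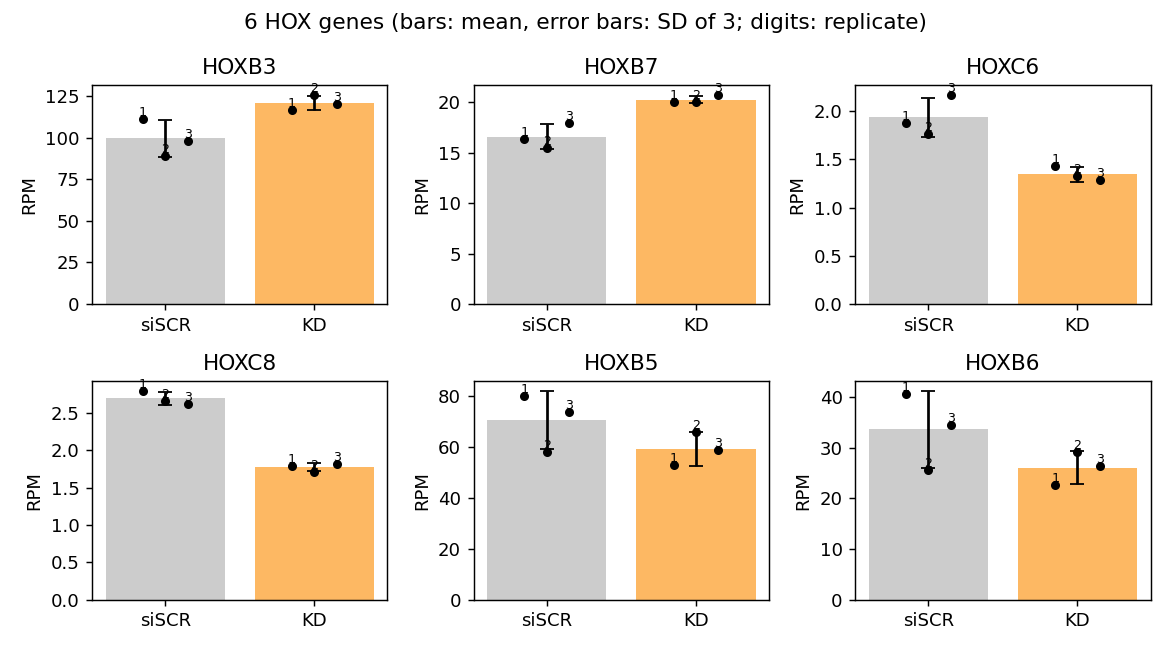
RPM of 6 HOX genes in each library, with bars at the mean of 3, error bars at the SD and digits giving the replicate number. HOXB3 and HOXB7 are higher and HOXC6 and HOXC8 lower in all 3 knockdowns, while for HOXB5 and HOXB6 siSCR replicate 2 lies among the knockdowns.

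HOXB5 (hg19 chr17:46668619-46671323), the highest member per kb, stood at 80.2, 58.1 and 73.6 RPM in the controls and 52.8, 65.9 and 59 RPM in the knockdowns. The groups overlapped through siSCR replicate 2, which lay below 2 of the 3 knockdowns. The log2 fold change was -0.25 (SE 0.11, 95% interval -0.49 to -0.01; limma, Benjamini-Hochberg adjusted p = 0.0954), and HOXB5 did not pass the test. HOXB6 (hg19 chr17:46671639-46682354), which was singled out after its values were seen, stood at 40.7, 25.6 and 34.6 RPM against 22.7, 29.1 and 26.4 RPM. The difference on the log2 scale was -0.35 by limma (SE 0.14; Benjamini-Hochberg adjusted p = 0.0751) and did not pass. Left without siSCR replicate 2, the limma fit gave -0.38 (adjusted p = 0.00231) for HOXB5 and -0.53 (adjusted p = 0.000947) for HOXB6. In that fit 4 of 7 HOXB genes passed, beside 7336 of 19105 genes tested. The groups had overlapped through this library, so its removal is no separate support for a change. Of the 17 other settings, this fit was the only 1 in which HOXB5 or HOXB6 passed. Over those settings the limma adjusted p reached 0.303 for HOXB5 and 0.257 for HOXB6. The omitted library was the lowest control for 7 of 7 HOXB genes, with a median deviation of -0.15 on the log2 scale. It was also the lowest control for 11 of the 13 HOX genes that were on. In the same cluster, siSCR replicate 1 was highest for 6 of 7 genes, KD replicate 1 lowest for 6 of 7 and KD replicate 2 highest for 6 of 7. These counts were not made over all genes, so they do not show a trait particular to HOXB. Across the genes of the table, siSCR replicates 1 and 2 were also the most different replicate pair (chi-square per degree of freedom 11.03). The part that a shift of whole libraries plays was not tested. The sum over the cluster did not separate the groups: 337, 262 and 307 RPM in the controls and 292, 330 and 310 RPM in the knockdowns. The other 3 HOXB genes did not pass the test. HOXB2 had 50.2, 40.6 and 46.9 RPM against 42.3, 51.4 and 46.8 RPM, HOXB4, a regulator of blood stem cells, 26.7, 22.3 and 24.0 RPM against 25.7, 25.8 and 25.4 RPM, and HOXB8 11.6, 10.4 and 11.5 RPM against 10.8, 11.7 and 11.2 RPM. Their log2 fold changes were 0.03, 0.08 and 0.01, and the interval for HOXB8 ran from -0.16 to 0.18.

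Among the 8 tested HOXA genes, 1 passed the test (12.5%, beside 41.0% of all genes tested). It was HOXA9, which was not on in the controls. HOXA5 (hg19 chr7:27180671-27183287), the leading gene of the cluster, stood at 19.8, 17.7 and 19.2 RPM in the controls and 19.7, 19.5 and 20.9 RPM in the knockdowns. Its groups overlapped, and the log2 fold change was 0.09 (SE 0.07, 95% interval -0.06 to 0.23; limma, Benjamini-Hochberg adjusted p = 0.342). HOXA3 spread more widely among the controls, with 8.46, 5.23 and 7.05 RPM against 6.32, 7.39 and 6.66 RPM, and its interval ran from -0.34 to 0.34. HOXA2, HOXA4, HOXA6 and HOXA7 had log2 fold changes of 0.11, 0.12, 0.11 and 0.21, none past the test. The sum over the HOXA cluster was 34.8 ± 2.8 RPM in the controls and 36.5 ± 1.3 RPM in the knockdowns.

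HOXA9 (ENSG00000078399.11, hg19 chr7:27202054-27210117, minus strand), a gene of the limb, kidney and blood progenitors, was at the edge of detection. It had 7, 10 and 9 reads in the siSCR libraries and 14, 10 and 11 reads in the less deeply sequenced knockdowns, or 0.206, 0.333 and 0.179 RPM against 0.628, 0.427 and 0.392 RPM. The groups did not overlap once scaled to depth, and HOXA9 rose by 1.01 on the log2 scale (SE 0.35, 95% interval 0.23 to 1.79; limma, Benjamini-Hochberg adjusted p = 0.0403). The call was lost in 12 of 16 other settings in which the gene could be tested, and the adjusted p ran from 0.0211 to 0.140. Leaving out siSCR replicate 2 was the only removal of a library that kept it. Of its GENCODE 29 exon bases, 27.0% are shared with other genes of the cluster. For each of the 5 changed genes, the exact permutation test over the 6 libraries gave p = 0.1, two-sided, the smallest that 3 against 3 allows.

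**Figure D4:**
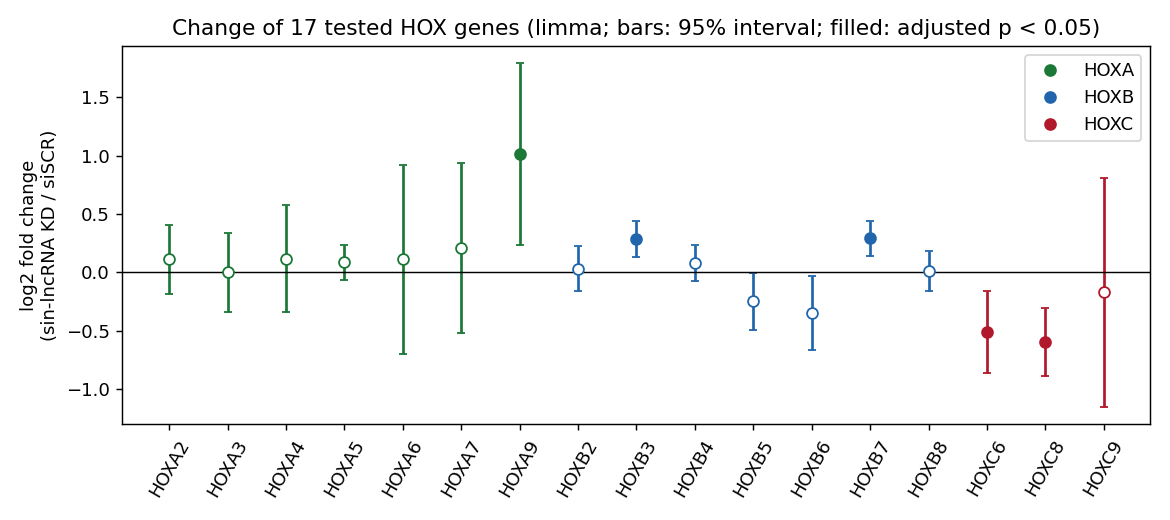
Log2 fold change (sin-lncRNA KD over siSCR) of 17 tested HOX genes, with 95% intervals from limma, coloured by cluster and filled where the adjusted p is under 0.05. HOXC6 and HOXC8 lie below 0, HOXB3 and HOXB7 at 0.29, and HOXA9 at 1.01 with an interval from 0.23 to 1.79.

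The HOXD genes could not be tested. HOXD3 had 0.264, 0.200 and 0.238 RPM in the controls and 0.314, 0.0427 and 0.285 RPM in the knockdowns, and the groups overlapped. No member without reads in the controls reached 0.1 RPM in a knockdown library: among members of groups 10 to 13, the highest value in a knockdown was 0.0896 RPM, in HOXA10 and HOXC13. HOXA11, with 0, 0 and 1 reads in the controls and 1, 1 and 2 in the knockdowns, passed as higher when the filter on low reads was dropped (limma, Benjamini-Hochberg adjusted p = 0.0411), on 5 reads in all.

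The noncoding genes that lie among the HOX genes gave 1 call among 8 tested (12.5%, beside 41.0% of all genes tested). The 4 clusters, each with a margin of 10 kb, held 42 noncoding genes of the table, of which 18 had reads and 8 could be tested. None was called higher by limma (0 also at an unadjusted p under 0.05, and 0 with voom on the recovered reads). The 1 called lower was RPL9P28, a ribosomal protein pseudogene between HOXB9 and HOXB13 (log2 fold change -0.30, limma, Benjamini-Hochberg adjusted p = 0.0163), whose reads may belong to other copies. HOXB-AS3, an antisense transcript of HOXB5 and HOXB6, had a mean of 12.8 RPM in the controls and 12.0 RPM in the knockdowns (log2 fold change -0.08). HOTAIRM1, a transcript of the HOXA cluster known from myeloid cells, had 7.07 and 6.42 RPM (-0.14), and HOXA-AS2 5.46 and 5.31 RPM (-0.03). HOTAIR, the HOXC transcript known for binding Polycomb, had 0 reads in every library, which allows up to 0.134 RPM in the shallowest. The strand setting of the counting is not given in the sources used here, so antisense and coding reads of the same locus cannot be told apart.

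Genes that act with or on HOX genes passed the test at shares of 36.7% to 70.6% of those tested in each list, beside 41.0% for all genes tested. Among 9 cofactors of the TALE class, which bind DNA jointly with HOX proteins, and PBXIP1, which is no homeodomain protein, 6 of 10 rose and none passed as lower by limma (1 at an unadjusted p under 0.05, and 0 with voom), with a median log2 fold change of 0.21. Without siSCR replicate 2, 1 passed as lower. PKNOX2, a partner of PBX, rose by 1.13 (SE 0.08; limma, Benjamini-Hochberg adjusted p = 2.62e-06), from 8.11 ± 0.58 to 17.8 ± 1.2 RPM (SD, n = 3). PBXIP1, which binds PBX proteins and blocks their joint action with HOX, rose by 0.56, from 130 ± 12 to 190 ± 6.1 RPM. PBX2 rose by 0.33 and MEIS1 by 0.24. MEIS2, singled out after its values were seen, rose by 0.17. The members of this list that rose therefore include partners of HOX proteins and an inhibitor of the partners.

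Among 30 Polycomb genes, 6 rose and 5 fell (36.7%), with a median log2 fold change of 0.01. JARID2 and MTF2, accessory proteins that bring the PRC2 complex to CpG-rich DNA, rose by 0.85 (SE 0.05) and 0.84 (SE 0.05), from 27.8 ± 0.92 to 50.0 ± 1.5 RPM and from 24.0 ± 0.52 to 42.9 ± 1.5 RPM. CBX6 and CBX7, which read the Polycomb mark in PRC1, fell by 0.60 and 0.53, CBX6 from 224 ± 10 to 148 ± 9.7 RPM. The core of PRC2, singled out after its values were seen, did not pass: EZH2 had a log2 fold change of 0.13, EED 0.04 and SUZ12 -0.01. Among 17 tested of 18 Trithorax and chromatin boundary genes, 10 rose and 2 fell (70.6%), with a median of 0.23. KDM6B, which removes the Polycomb mark, rose by 0.54, from 37.6 ± 3.0 to 54.6 ± 2.6 RPM, and NIPBL, which loads cohesin, by 0.37. MEN1 and WDR5, subunits of the methyltransferase complexes that oppose Polycomb, fell by 0.33 and 0.30.

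Among 15 tested of 20 retinoic acid pathway genes, 7 rose and 2 fell (60%), with a median of 0.35. ALDH1A2, which makes retinoic acid, rose by 1.28 (SE 0.28; limma, Benjamini-Hochberg adjusted p = 0.00403) from a low level, 0.512 ± 0.19 to 1.21 ± 0.18 RPM. DHRS3, which returns retinal to retinol and is induced by retinoic acid, rose by 0.78, and RARG, a retinoic acid receptor, fell by 0.53. TGM2, a transglutaminase induced by retinoic acid in many cells, fell by 0.89, from 994 ± 35 to 537 ± 13 RPM. The members that changed went in both directions. CYP26A1, the retinoic acid hydroxylase, had no reads. HOXB1, a HOX gene known as a retinoic acid target, had no reads.

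**Figure D5:**
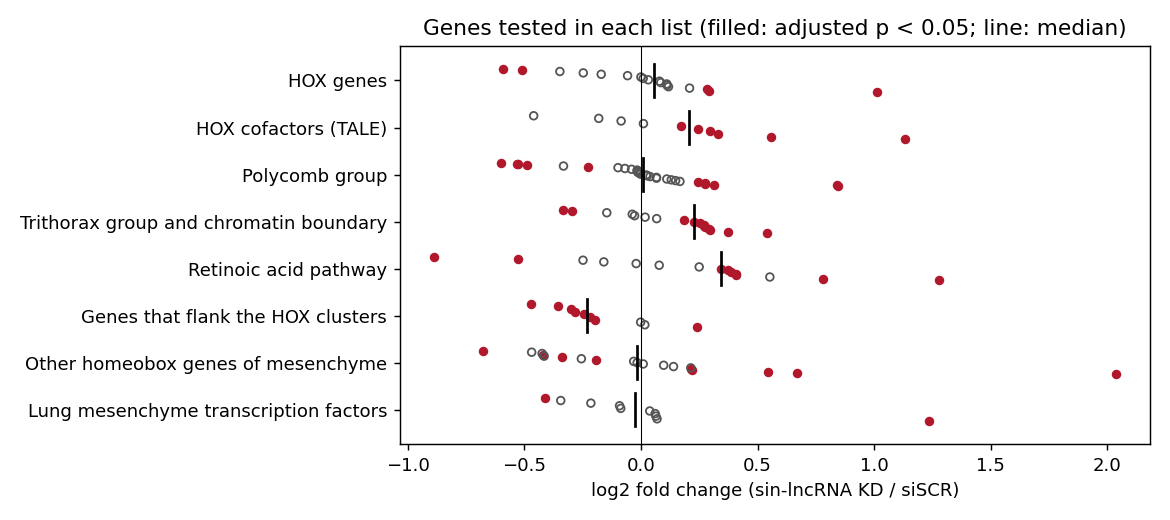
Log2 fold change of each tested HOX gene and of each tested gene of 7 related lists, filled where the limma adjusted p is under 0.05, with a line at the median of each list. HOX genes centre near 0, the cofactors at 0.21, Trithorax and boundary genes at 0.23, and the genes that flank the clusters at -0.23.

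The genes on either side of the clusters were mostly lower. Of 10 tested among 17 flanking genes, 7 fell and 1 rose, with a median of -0.23. That is 80% of those tested, beside 41.0% of all genes tested, and 23.5% of all genes were lower. On chromosome 12, beside the HOXC cluster, CALCOCO1 fell by 0.47 (SE 0.05), from 62.9 ± 3.4 to 45.3 ± 1.2 RPM, CBX5 by 0.36 and HNRNPA1 by 0.30. SMUG1 and ATP5MC2, also beside HOXC, had log2 fold changes of 0.00 and 0.02 and did not pass. SKAP2, beside HOXA, fell by 0.28, although no HOXA gene passed as lower by limma (0 at an unadjusted p under 0.05, and 0 with voom). LNPK and MTX2 flank HOXD, whose genes had few or no reads. LNPK fell by 0.24 and MTX2 rose by 0.24. Lower values of CALCOCO1, CBX5 and HNRNPA1 beside HOXC occurred together with lower values of HOXC6 and HOXC8, while SMUG1 and ATP5MC2 did not pass. Lower values also occurred beside HOXA, where no gene passed as lower, and beside HOXD, whose genes could not be tested. Genes beside HOXB are not described here, and not every flanking gene that fell is named, so the comparison is partial. A link between flanking genes and HOX genes was not tested. EVX1 and EVX2, homeobox genes at the ends of HOXA and HOXD, had no reads.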

How the data were processed

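PolyA RNA from 6 samples, 3 per group, was sequenced as single 50 bp reads, per the labels' protocols. Bowtie2, featureCounts and hg19 are named in the submitters' processing notes; versions, strand setting and annotation release are not given in the sources used here. The authors deposited a table of log2 values, described by its name as normalized counts. The deposited log2 values were found to be log2 of reads plus 0.5, scaled to 1000000 by an effective library size. Undoing this gave whole reads for 100% of the values (tolerance 0.01). RPM is these reads over the effective size. RPM per kb used exon lengths of GENCODE 29, matched by gene ID. Table coordinates are hg19 per the notes, GENCODE 29 and RefSeq are GRCh38, and none were converted.

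The deposited log2 values were tested with limma 3.58.1 in R 4.3.3 (empirical Bayes with an intensity trend, two-sided, group as the only term). Genes needed a mean of 10 normalized reads over the 6 libraries, which left 19048. Calls needed a Benjamini-Hochberg adjusted p under 0.05. Intervals are 95%. The fit was tested on simulated data. Replicates of a group differed by more than counting noise (chi-square per degree of freedom 2.87 to 11.03). The members and gene lists were chosen with earlier results of these data known. Named were the HOX genes called with separate groups, the highest per kb of each active cluster, and up to 4 called genes per list by size of change; others are said to have been singled out. 17 other settings were run: other offsets, filters, scalings, voom on recovered reads, robust moderation, thinning to equal depth, a replicate block, a stricter threshold and each library left out. Negative binomial count models were not run. The recovered reads were used with voom only. Some items are not reported here.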

Additional observations from a re-analysis of the deposited data

How the results depend on the processing

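HOXB3, HOXB7 and HOXC8 passed the test in the same direction in all 17 other settings: log2 fold changes ran from 0.21 to 0.37 for HOXB3, from 0.23 to 0.35 for HOXB7 and from -0.68 to -0.18 for HOXC8, with adjusted p from limma of at most 0.0332, 0.0303 and 0.0190. HOXC6 lost its call in 6 of 17 settings and HOXA9 in 12 of 16. Called HOX genes numbered 3 at an adjusted p under 0.01 (1 lower, 0 in HOXA, 1 in HOXC), where all genes called numbered 5195. Without the filter on low reads, 1 HOX gene was lower, 1 HOXC gene was called, and the 1 HOXA gene called was HOXA11 (5 reads in all) in place of HOXA9. No HOXA gene was called with offsets of 1 or 5 CPM, a mean of at least 50 reads, quantile normalization or thinning to equal depth. With 1 library left out, called HOX genes numbered 3 to 7, lower ones 1 to 4, HOXA genes 0 to 1, HOXB genes 2 to 4 and HOXC genes 1 to 2, and the HOX median ran from -0.013 to 0.10. All genes called in these fits numbered 5806 to 7336. The 7 called, the 4 lower, the 4 in HOXB and the median of -0.013 came without siSCR replicate 2; the 3 called came without siSCR replicate 3, KD replicate 2 or KD replicate 3. The cause was not tested.

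No gene that was called changed direction. Of those not called, 6 did in at least 1 setting: after thinning, HOXA3 had 0.00694, HOXB2 -0.0154 and HOXB8 -0.0315, and HOXA3 had 0.019 with library totals and 0.0454 after quantile normalization. With 1 library left out, HOXA3 ran from -0.187 to 0.159, HOXA4 from -0.0503 to 0.219, HOXA6 from -0.160 to 0.486, HOXB2 from -0.0544 to 0.103, HOXB8 from -0.0435 to 0.0382 and HOXC9 from -0.539 to 0.0187.

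Equal replicate numbers gave no sign of pairing: the correlations of their deviations were -0.15, -0.18 and 0.07. Between unequal numbers they ran from -0.08 to 0.20. With 3 libraries per group this check cannot settle whether the samples were paired. A replicate block left 3 called HOX genes (1 lower, 0 in HOXA, 1 in HOXC; HOXA9 adjusted p = 0.0646 and HOXC6 adjusted p = 0.0519 in limma) and 6454 of all genes. Among the lists, leaving out siSCR replicate 2 raised the lower calls among lung mesenchyme factors from 1 to 4, and leaving out KD replicate 2 to 2. Without the filter the median over all genes was 0.08 in place of -0.04. Depth limits the low members most: 3 reads in the shallowest library are 0.134 RPM.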

Other observations

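Other homeobox genes of mesenchyme, outside the HOX clusters, were also measured. Of 44 listed, 19 could be tested, 5 rose and 4 fell (47.4% of those tested, beside 41.0% for all genes), with a median log2 fold change of -0.02. PRRX1, a gene of mesenchymal and fibroblast identity and the most abundant of those called, fell by 0.34, from 198 ± 6.3 to 157 ± 15 RPM (SD, n = 3; limma, Benjamini-Hochberg adjusted p = 0.00148), and was named after its values were seen. Its paralog PRRX2 fell by 0.68 (SE 0.18), from 7.60 ± 2.4 to 4.59 ± 0.055 RPM. MSX2, a target of BMP signals, rose by 0.67, from 4.40 ± 0.56 to 6.99 ± 0.72 RPM, and TGIF2, a repressor in the TGF-beta pathway, by 0.54. MEOX1, a gene of somites and of activated fibroblasts, rose by 2.04 (SE 0.55) at the edge of detection, from 0.181 ± 0.16 to 0.618 ± 0.16 RPM. The 6 ParaHox genes, close relatives of the HOX genes, had too few reads to test.

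Of 14 transcription factors of lung mesenchyme, 10 could be tested, 1 rose and 1 fell (20% of those tested, beside 41.0% for all genes). Without siSCR replicate 2, 4 passed as lower. GATA6 rose by 1.24 (SE 0.15; limma, Benjamini-Hochberg adjusted p = 7.61e-05), from 1.40 ± 0.10 to 3.32 ± 0.38 RPM. TCF21, a marker of lung lipofibroblasts, fell by 0.41, from 7.12 ± 0.056 to 5.35 ± 0.26 RPM. FOXF1, the main factor of lung mesenchyme, singled out after its values were seen, did not pass, at 250 and 234 RPM on average (log2 fold change -0.09).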
